A study of Nasonia vitripennis with 140 samples.

Results

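CYP9AG7 is a cytochrome P450 gene of the parasitoid wasp Nasonia vitripennis, and it was 1 of 15471 genes in the deposited count table. It was chosen by name for its distribution over sex and body part, so its level in each group and its sex difference are given as a description with no test. Its row was followed through all 140 libraries, which form 28 groups of 5. For CYP9AG7, the tests given are those of the dsRNA label within each sex and of its interaction with sex.

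Nasonia males are haploid and develop from unfertilised eggs, whereas females are diploid. AsymCX wasps, raised on Calliphora hosts, received dsRNA against doublesex (dsx), a transcription factor of insect sex determination, or against green fluorescent protein (GFP) as the control, at 4 µg/µl. Both sexes were sampled as embryos of day 1, larvae of day 7 and day 9, pupae of day 11, and adult heads, thoraces and abdomens. The study asked how knockdown of dsx changes expression that differs between the sexes. Larvae and pupae were injected on day 4, 6 or 8 after oviposition and taken 3 days later, with 3 individuals per sample. They were sampled as whole animals, so no head libraries exist before the adult stage among the samples analysed here. Adult parts came from wasps injected as day 8 pupae, of which 7 were collected 1 day after emergence and dissected. Embryo samples held 100 embryos whose mothers had been injected as day 8 pupae and mated to uninjected males or kept virgin. Male embryos came from the virgin mothers, and the offspring of mated mothers, used as the female embryos, were 90 to 95% female. The labels do not say whether replicates came from separate rearings, so p-values measure the spread between these samples, which may be technical.

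Cytochrome P450s are heme enzymes that insert an oxygen atom into a substrate, with electrons usually passed on by a NADPH-dependent reductase. The CYP9 family belongs to the CYP3 clan, a group of insect P450s known for metabolism of plant compounds and insecticides, and CYP9Q enzymes of the honeybee break down several insecticides. Other insect P450s make or degrade hormones, pheromones and odorants. The sources used here name no substrate of CYP9AG7.

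Library totals ran from 59.2 to 113 M counts, and from 67.1 to 96.6 M in male heads. Levels are CPM, a gene's counts per 1 M counts of its library, with SD over 5 libraries. Tra, the splicing regulator transformer, was lower in every male library than in any female library in 14 of 14 pairs of stage and dsRNA, so the sex labels held. RNA of Dsx, the gene targeted by the dsRNA, was 257 ± 13.7 CPM in GFP male heads and 270.4 ± 69.9 CPM in the male heads labelled dsx-RNAi (log2 fold change 0.06 ± 0.14 SE, adjusted p = 0.899, edgeR quasi-likelihood test). In male pupae Dsx was higher under the dsx label by 1.32 on the log2 scale (adjusted p = 1.16e-06, edgeR). It was also higher in dsx-labelled male larvae of day 7 (0.47, adjusted p = 0.000478) and day 9 (0.72, adjusted p = 1.07e-05, edgeR). In male abdomens it was higher by 0.27 (adjusted p = 0.0186, edgeR). In male thoraces (-0.11 ± 0.15 SE, adjusted p = 0.606) and embryos (-0.12, adjusted p = 0.996, edgeR) it was not called. The label therefore stands here for the injected dsRNA and not for a measured loss of Dsx RNA, and the groups are called dsx-labelled. The head label fitted its markers. The long-wavelength opsin Lop1 ranged from 3313 to 6834 CPM in male heads and from 0 to 1.52 CPM in male thoraces. The summed odorant receptors were 531 to 742 CPM in GFP male heads and 78.2 to 103 CPM in GFP male thoraces. Of 214 odorant receptor genes, 208 had counts in GFP male heads and 191 in GFP male thoraces, so detection alone hardly separated the parts.

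CYP9AG7 RNA was found almost wholly in adult male heads. The 10 male head libraries held 5988502 of its counts and the other 130 libraries held 823, so that 99.99% of all its counts came from male heads. The 5 GFP male heads had 14088, 12633, 7596, 6053 and 5310.1 CPM, a mean of 9136 ± 3977. The 5 dsx-labelled male heads had 13099, 5238, 4698, 4963 and 4923 CPM, a mean of 6584 ± 3647. In these libraries CYP9AG7 alone took 0.47 to 1.41% of all counts. The lowest male head count was 323432, against a highest count of 227 anywhere else. In bulk tissue, fewer cells of a type and less RNA per cell cannot be told apart.

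**Figure D1:**
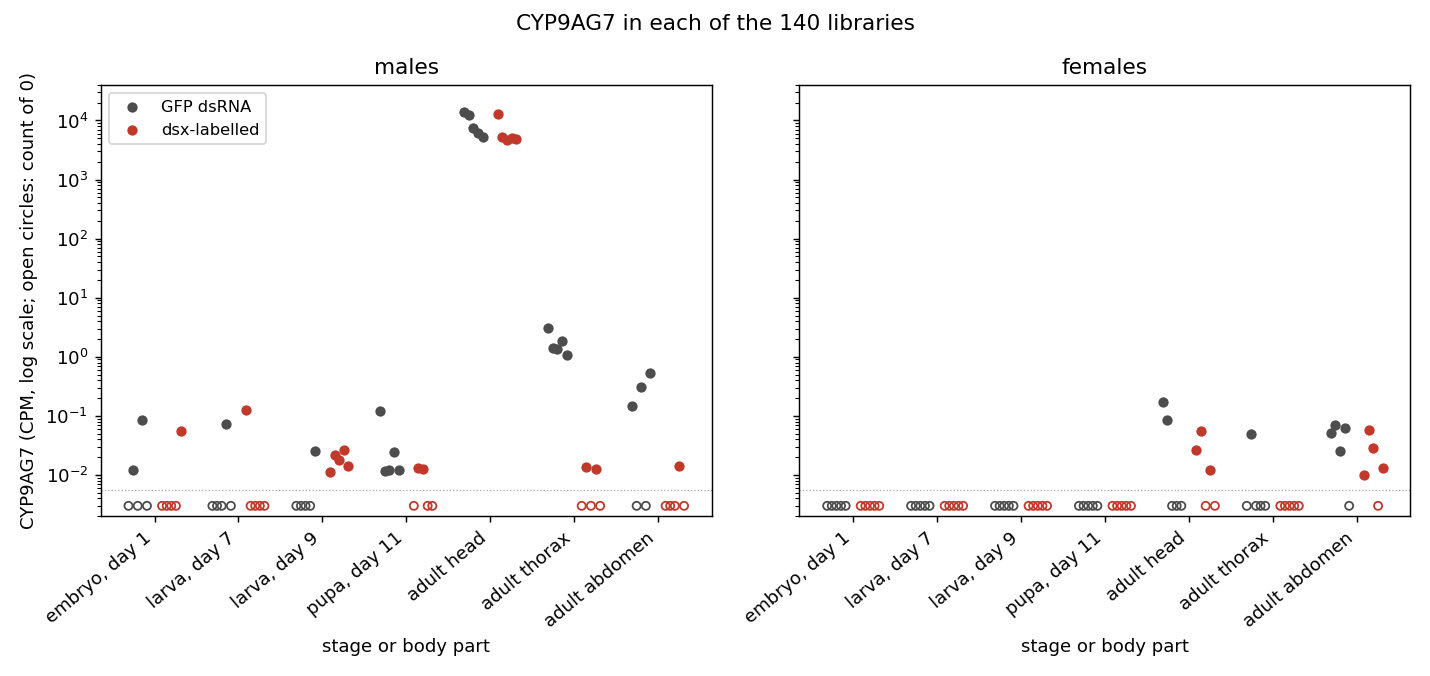
CYP9AG7 in each of the 140 libraries, as CPM on a log scale, with males on the left and females on the right; grey points are GFP dsRNA, red points are dsx-labelled, and open circles below the dotted line are libraries with a count of 0. The 10 male heads lie between 4698 and 14088 CPM, the GFP male thoraces lie near 1 to 3 CPM, and no female library exceeds 0.170 CPM.

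Female heads were close to 0. The 5 GFP female heads had counts of 12, 7, 0, 0 and 0, a mean of 0.0511 ± 0.0761 CPM, and the dsx-labelled female heads had 2, 4, 0, 1 and 0. The highest female head and the lowest male head did not come near each other in either dsRNA group. The summed count of GFP male heads exceeded that of GFP female heads 187291-fold per count sequenced, with a 95% Poisson interval of 119933 to 311081 that covers counting error only. Over all 70 female libraries, 14 had any count, the sum was 55 and the highest was 12. Of the 14 female groups 9 were at 0 in every library, among them all 8 groups of embryos, larvae and pupae. In those 40 female libraries a count of 0 allows a level of up to 0.00103 CPM, taken as 3 counts over their summed total.

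The gene was at most a trace in males before adulthood. Of 40 male libraries of embryos, larvae and pupae, 18 had a count, and their sum was 55. The highest was 10 counts, or 0.124 CPM, in a dsx-labelled day 7 larva library. GFP male embryos had counts of 0, 1, 0, 7 and 0, and the dsx-labelled ones had 0, 0, 0, 0 and 4. At day 7 the GFP male larvae had 0, 0, 0, 6 and 0, and the dsx-labelled ones had 10, 0, 0, 0 and 0. At day 9 the GFP male larvae had 0, 0, 0, 0 and 2, and the dsx-labelled ones had 1, 2, 2, 2 and 1. These groups each rested on a handful of reads, mostly from 1 library. GFP male pupae of day 11 were the earliest GFP male group with a count in every library, at 10, 1, 1, 2 and 1, and dsx-labelled male pupae had 0, 1, 1, 0 and 0. The mean of GFP male pupae was 0.0362 ± 0.0477 CPM. GFP male heads stood 252070-fold above it as a ratio of means, although a whole pupa and a dissected head are different samples. Between day 11 and 1 day after emergence no stage was sampled, so the high level was first seen in the adult head.

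In the other adult male parts the level was low, and in the thorax it was lower still under the dsx label. GFP male thoraces had counts of 227, 96, 102, 125 and 72, which is 3.13, 1.42, 1.37, 1.82 and 1.08 CPM and a mean of 1.76 ± 0.808. Dsx-labelled male thoraces had counts of 0, 1, 0, 1 and 0. Every GFP male thorax was above every dsx-labelled one. GFP male abdomens had counts of 10, 0, 27, 0 and 51, a mean of 0.198 ± 0.229 CPM, and dsx-labelled male abdomens had 0, 0, 0, 1 and 0. GFP female thoraces had 0, 4, 0, 0 and 0 counts, and dsx-labelled female thoraces had none. Female abdomens had 4, 5, 2, 5 and 0 counts under GFP and 1, 5, 2, 0 and 1 under the dsx label. Those small female abdomen counts overlapped the range of the GFP male abdomens.

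In order of mean level, GFP and dsx-labelled male heads came first and overlapped each other. GFP male thoraces followed without overlap with the heads above them or with the GFP male abdomens below them, whose highest library was at 0.540 CPM. From the GFP male abdomens down, the groups reached 0 or single counts and neighbours in the order overlapped. Under the 3 other scalings tried, each group mean above 0 moved by less than the spread between its libraries. The 9 groups with 0 in every library stayed at 0, as any scaling leaves them.

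The dsx label was tested in the male thorax first, where the groups were apart. CYP9AG7 was lower in dsx-labelled than in GFP male thoraces, with 2 counts in all against 622. The ratio was 326, with a 95% Poisson interval of 89.8 to 2696. The edgeR quasi-likelihood test gave a log2 fold change of -7.94 ± 0.82 (SE) with an adjusted p of 6.75e-06, in a contrast where 26.9% of the genes tested were called, 15% higher and 11.9% lower. The gene passed the count filter in the thorax through the GFP male libraries alone, and the fit with no filter on low counts gave -7.95 with an adjusted p of 7.88e-06 (edgeR). The exact permutation test, two-sided and on log2(CPM + 0.1), gave p = 0.00794, the smallest that 5 against 5 libraries can give, and 0.0556 after Benjamini-Hochberg adjustment over the 7 stages and body parts. In female thoraces, with 4 counts against 0, the adjusted p was 0.537 (edgeR), where 0.0170% of genes were called. The interaction of sex and label was not called, at -5.12 on the log2 scale with an adjusted p of 0.945 (edgeR) where 12.7% of genes were called, and its SE of 35.4 reflects the female counts near 0. DESeq2 gave -6.33 with an adjusted p of 0.00196 on the same counts. With 4 and 0 counts in the female groups, neither value shows whether the label effect differed between the sexes.

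Genes high in heads were measured in the thorax samples beside this result. Lop1 was at 0 in 3 of the 5 GFP male thoraces, and its mean was 0.315 ± 0.672 CPM under GFP and 0.113 ± 0.231 CPM under the dsx label. The summed odorant receptors were 78.2 to 103 CPM in GFP male thoraces and 61.2 to 83.2 CPM in dsx-labelled ones, and these ranges overlapped. Male abdomens had 71.3 ± 4.57 CPM under GFP and 66.3 ± 7.32 CPM under the dsx label, so sums of this size were not particular to the thorax. LOC100123365, a protein-coding gene of the same male head distribution (below), had 0.170 ± 0.161 CPM in GFP and 0.209 ± 0.126 CPM in dsx-labelled male thoraces (log2 fold change 0.32 ± 0.74 SE, adjusted p = 0.783, edgeR). LOC103316980, another such gene, had 0.0754 ± 0.0749 and 0.0749 ± 0.0441 CPM. Neither gene separated the labels in the thorax as CYP9AG7 did. LOC100677912, also concentrated in male heads (below), was lower in dsx-labelled male thoraces (-1.32 ± 0.38 SE, adjusted p = 0.016, edgeR). LOC100115602, LOC100119652, LOC100124060 and LOC100678345, each with at least 90% of summed group means in male heads, were not called there. The part of carried-over head tissue in the thorax level was not tested.

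In the abdomen and before adulthood CYP9AG7 did not reach the count filter, and the exact permutation test alone was run. In the abdomen the GFP males had 88 counts and the dsx-labelled males 1, with overlapping libraries (p = 0.167, adjusted 0.267, exact permutation test). In pupae the sums were 15 and 2 (exact p = 0.0794, adjusted 0.185). In day 9 larvae the dsx-labelled males were the higher ones, with 8 counts against 2 (exact p = 0.0397, adjusted 0.139). In day 7 larvae and in embryos the exact permutation p was 1 and 0.722, adjusted 1 and 0.843. Of these 5 differences, the one in day 9 larvae had an unadjusted p below 0.05, and none had an adjusted p below 0.05 in this exact permutation test.

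In the male head the difference between labels was within the spread between libraries. The log2 fold change was -0.50 ± 0.41 (SE) with an adjusted p of 0.593 by the edgeR quasi-likelihood test, in a contrast where 8.92% of the genes tested were called. The exact permutation p was 0.190 and 0.267 after adjustment. In female heads the fold change was -1.44 with an adjusted p of 1.00 (edgeR, 0.0412% of genes called), on 19 and 7 counts. The interaction was 0.94 with an adjusted p of 0.837 (edgeR, 4.1% called), and it turned to -0.16 without GFP female head replicate 1, which held 12 of the 19 counts. The male head and thorax contrasts use different libraries, and the difference between them was not tested.

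The spread between male heads came from 3 libraries. GFP replicates 1 and 2 and dsx-labelled replicate 1 had 12633 to 14088 CPM with a mean of 13274, and the other 7 had at most 7596 CPM with a mean of 5540.2. The ratio of these means was 2.40. The 3 libraries also stood apart over other genes. On the leading component of the variation within groups, computed over the 20 head libraries without CYP9AG7, they scored 49.1, 47.0 and 69.2, against -35.7 to -12.8 for the other male heads, and this component held 37.8% of the variation within groups. Their totals, 67.1 to 96.6 M, enclosed those of the other 7, at 68.2 to 80.0 M. Earlier results had already marked these 3 libraries.

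**Figure D2:**
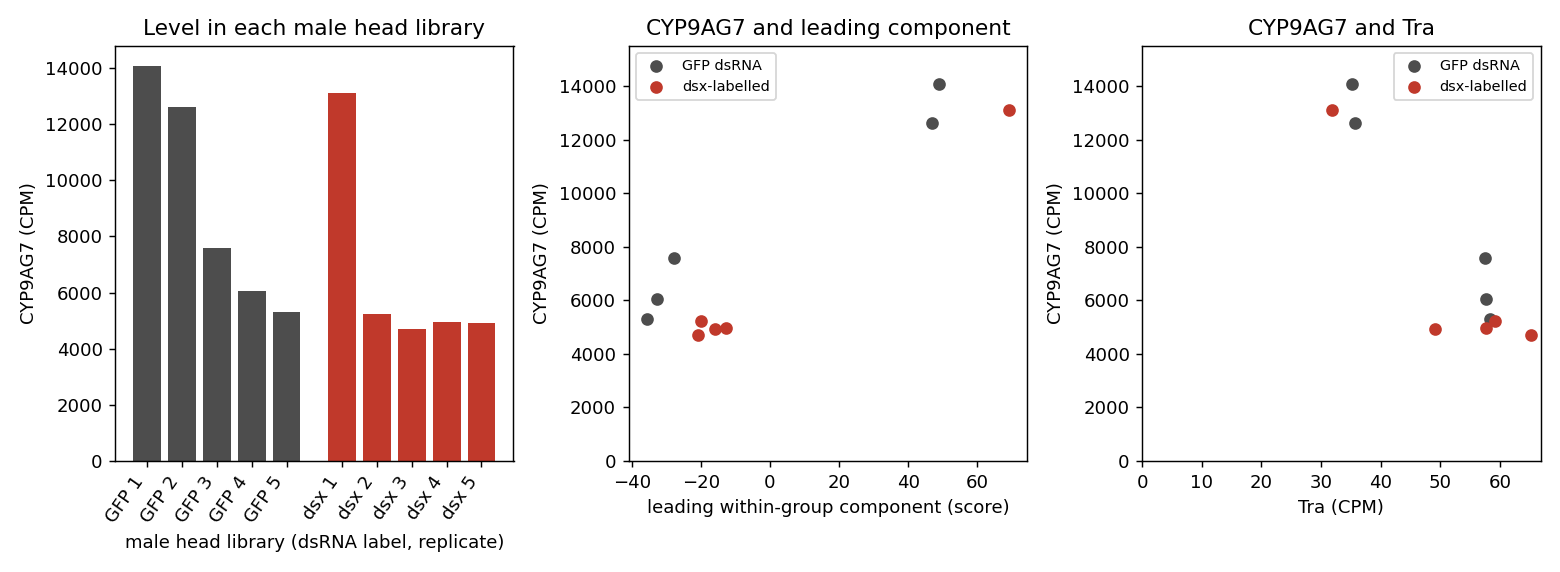
The 10 male head libraries, grey for GFP dsRNA and red for dsx-labelled: CYP9AG7 in CPM per library (left), and against the score on the leading within-group component computed without CYP9AG7 (middle) and against Tra in CPM (right), 1 point per library. The 3 libraries at 12633 CPM or more are the 3 with positive scores and the 3 with the lowest Tra levels.

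Among the GFP male heads Tra was at 35.1 and 35.6 CPM in replicates 1 and 2 and at 57.6 to 58.4 CPM in the other 3. In dsx-labelled male heads it was at 31.8 CPM in replicate 1 and at 49.2 to 65.1 CPM in the other 4. Tra was thus lowest in the same 3 libraries. Lop1 was highest in GFP replicates 1 and 2, at 6834 and 5595 CPM, and lowest in dsx-labelled replicate 1, at 3313 CPM, so it did not separate the 3. The summed odorant receptors were 562, 742 and 763 CPM in the 3 libraries and 486 to 617 CPM in the others. Dsx was 153 CPM in dsx-labelled replicate 1 and 235 to 335 CPM in the other 9 male heads. The part of the makeup of these samples in the CYP9AG7 level was not tested.

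Without the 3 libraries, the remaining GFP male heads had 6320 ± 1166 CPM (SD, n = 3) and the remaining dsx-labelled ones 4956 ± 222 CPM (SD, n = 4). The 3 GFP values, 7596, 6053 and 5310.1, all lay above the 4 dsx-labelled values of 4698 to 5238. The 3 libraries left out held the 3 highest CYP9AG7 levels, so this order follows a selection on the level itself and is no test of the label. The edgeR fit without the 3 libraries gave a log2 fold change of -0.37 with an adjusted p of 0.458, and the fit with the leading component as a covariate gave -0.52 with an adjusted p of 0.10. Neither passed the threshold of 0.05.

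Many genes shared this spread. After group means of log2(CPM + 0.1) were subtracted, 1509 of 7198 genes of at least 10 CPM in male heads had a Pearson correlation of 0.9 or more with CYP9AG7 over the 10 libraries, which is 21.0%, and 1095 or 15.2% had -0.9 or less. These libraries share the 3 that stood apart, and the correlations largely restate them. The 5 genes closest to CYP9AG7 were LOC100115316 (r = 0.999), LOC100678590, LOC100117852, LOC100124194 and LOC100119652, all protein coding. LOC100115316 had 103 to 110.3 CPM in the 3 libraries and 58.8 to 74.9 CPM in the other 7. LOC100678590 had 35.8 to 46.4 CPM against 8.76 to 20.7 CPM, and LOC100119652 had 557 to 938 CPM against 216 to 319 CPM. For none of the 5 was the difference between labels called in male heads, where 8.92% of all genes were called. The 5 were chosen for their spread within the groups of these same libraries, so this count is no result about the label.

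Across the 28 groups, CYP9AG7 was the gene whose summed group means were most concentrated in the 2 male head groups, at 99.99%, among 10591 genes of at least 10 CPM in some group. Equal means over all groups would give 7.14%. Of these genes 3 reached 99%, 10 reached 90% and 43 reached 50%. This count was chosen after the values were seen. By Pearson correlation of log2(CPM + 0.1) over the 28 group means, the closest genes were LOC100123365 (r = 0.98), LOC103316980 (0.97), LOC116416351 (0.94), the CYP3 clan P450 CYP6CK11 (0.93) and LOC100678345 (0.91). The same 5 led with a pseudocount of 1 CPM and none of them with Spearman's rho, which ranks the groups near 0 as fully as the heads.

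**Figure D3:**
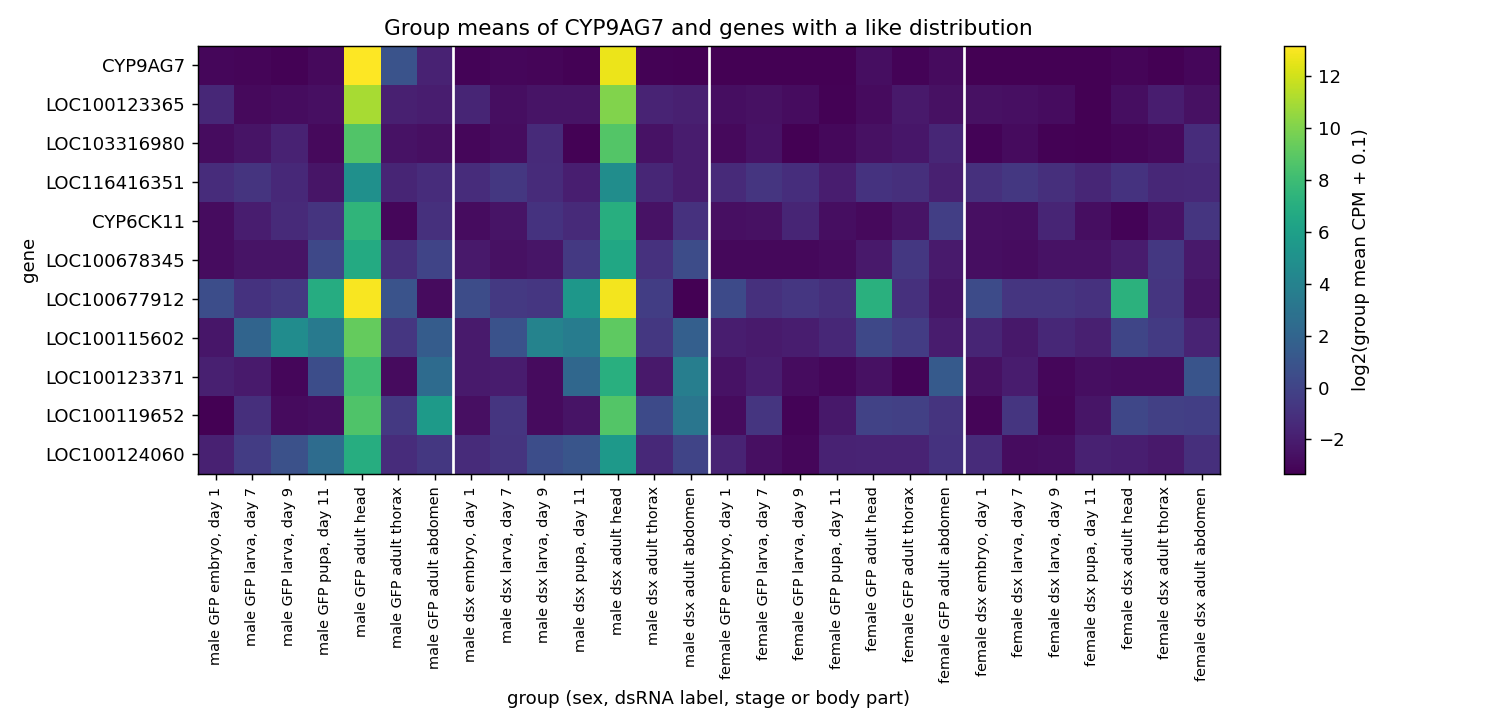
Group means, as log2(mean CPM + 0.1), of CYP9AG7, the 5 genes closest to it over the 28 groups, and the other genes with at least 90% of their summed group means in male heads; columns are the 28 groups and white lines part the sexes and dsRNA labels. In all rows the 2 male head columns are the brightest, and only some rows also show signal in male larvae or pupae.

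LOC100123365 had 1361 to 2838 CPM in GFP male heads with a median of 1901, and 768 to 1976 CPM in dsx-labelled male heads with a median of 833. It was lower under the dsx label there, by -1.01 ± 0.25 on the log2 scale (adjusted p = 0.0139, edgeR). In GFP female heads it had at most 0.0759 CPM. LOC103316980 had 328 to 484 CPM in GFP and 360.3 to 654 CPM in dsx-labelled male heads (log2 fold change 0.01 ± 0.21, adjusted p = 0.994, edgeR). CYP6CK11 had 121 to 239 CPM in GFP and 94.1 to 238 CPM in dsx-labelled male heads, with a fold change of -0.52 ± 0.25 that was not called (adjusted p = 0.251, edgeR). In GFP female heads CYP6CK11 reached 0.0852 CPM at most. LOC116416351 and LOC100678345 were not called either. Of the 5 genes closest in distribution, 1 was lower in dsx-labelled male heads and 4 were not called, in a contrast where 8.92% of all genes were called.

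In the reference gene order CYP9AG7 lies between LOC100117583 and LOC100124156, with LOC103315979, a long non-coding RNA gene, and LOC100124154 next to these. LOC100117583 had 6.82 CPM in GFP male heads and 9.06 CPM in GFP female heads, and LOC100124156 had 12.7 and 17.5 CPM. LOC103315979 stayed near 0, at 0.0108 and 0.00778 CPM. LOC100124154 had 2.62 ± 1.61 CPM in GFP male heads and 1.27 ± 0.166 CPM in GFP female heads, and its highest male head values, 4.45, 4.30 and 3.28 CPM, were in the 3 libraries that stood apart, against 0.768 to 1.71 CPM in the other 7. It was higher in GFP male than GFP female heads by 1.12 ± 0.43 on the log2 scale (adjusted p = 0.0498, edgeR, 33.8% of genes called). Its level in GFP male abdomens was 48.6 CPM. LOC100117583 and LOC100124156 were lower in GFP male than GFP female heads, by -0.32 ± 0.10 (adjusted p = 0.0233) and -0.37 ± 0.08 (adjusted p = 0.00175, edgeR). The span of CYP9AG7 is overlapped by that of LOC100117668, a protein-coding gene, and the sources used here do not say how reads from overlapping genes were counted. LOC100117668 had 1.28 CPM in GFP male heads, 2.48 CPM in GFP female heads and 13.5 CPM in GFP female abdomens, so its own counts ran unlike those of CYP9AG7.

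The other 9 genes of the CYP9 family were expressed in both sexes. CYP9AG4 had 566 ± 137 CPM in GFP male heads, 424 ± 26.0 CPM in GFP female heads, 587 ± 112 CPM in GFP male thoraces and 874 ± 129 CPM in GFP male abdomens. CYP9AG3 had 135 ± 60.8 CPM in GFP male heads, 74.9 ± 8.66 CPM in GFP female heads and 85.2 ± 29.7 CPM in GFP male thoraces. Of these 9 genes, 6 were higher in GFP male than GFP female heads and none was lower, in a contrast where 33.8% of all genes were called, 17.8% higher and 16% lower (edgeR). The largest of these differences was 1.27 ± 0.21 on the log2 scale for CYP9AG6 (adjusted p = 0.000138, edgeR). CYP9AG6 itself ran at 17.7 ± 8.09 CPM in GFP male heads and 7.79 ± 0.909 CPM in GFP female heads. It had 28.1 and 24.0 CPM in GFP male head replicates 1 and 2, which stood apart, and 10.1 to 15.6 CPM in the rest. CYP9AG3 had 199 and 201 CPM there against 72.8 to 103 CPM. CYP9AG4 had 719 and 709 against 433 to 495 CPM. CYP9AH2 had 86.3 and 86.0 against 67.0 to 74.8 CPM. CYP9AG8P did not separate those libraries, and CYP9P4 was lower in them (1.91 and 2.02 against 3.12 to 6.00 CPM).

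Of the 9 genes 1 was called for the dsx label in male heads, which is 11.1% beside 8.92% of all genes. It was CYP9AG3, at -0.77 ± 0.22 on the log2 scale (adjusted p = 0.0344, edgeR). It had 72.8 to 201 CPM in GFP and 66.7 to 110.5 CPM in dsx-labelled male heads, and the libraries overlapped. In male thoraces CYP9AG3 was lower as well, by -1.21 ± 0.34 (adjusted p = 0.0130, edgeR). CYP9AH6 and CYP9P3 were higher there, by 0.42 ± 0.09 (adjusted p = 0.00203) and 0.79 ± 0.18 (adjusted p = 0.00390, edgeR). The other 6 members were not called in the male thorax, so that 33.3% of the 9 were called beside 26.9% of all genes. Both shares were near those over all genes. In female heads and in female thoraces edgeR called 0 of the 9, with 1 in each at an unadjusted p below 0.05, and in female thoraces DESeq2 called 1 of the 40 P450s tested.

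**Figure D4:**
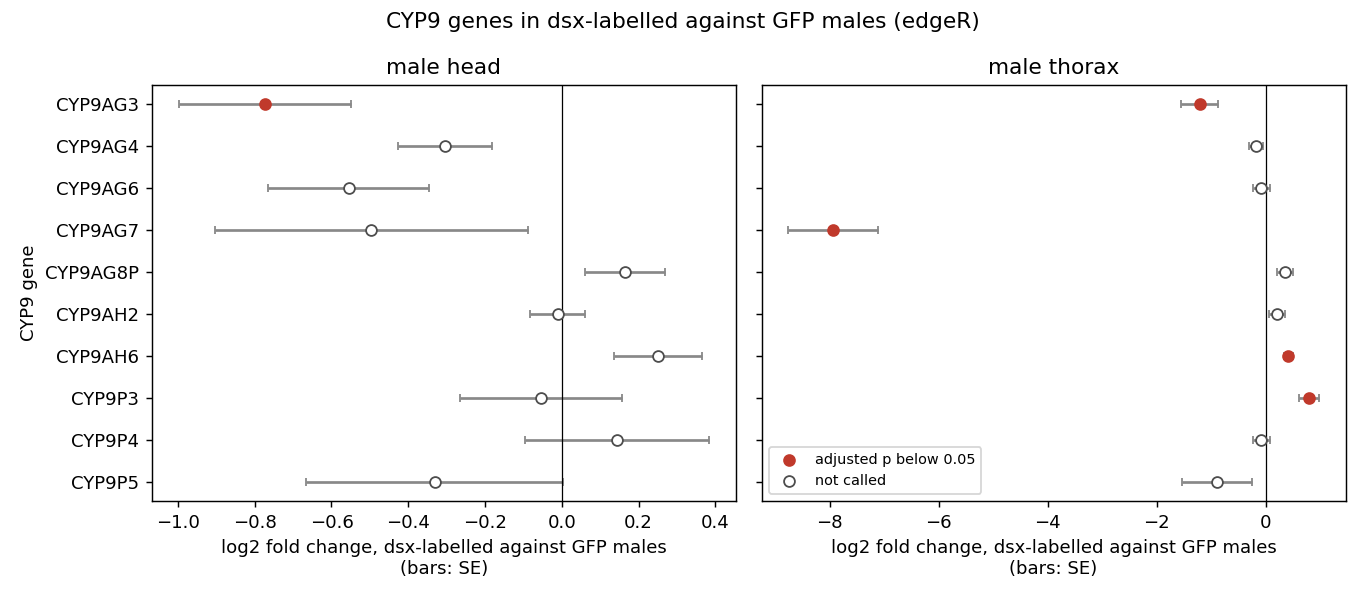
Log2 fold change between dsx-labelled and GFP males for the 10 CYP9 genes in the head (left) and thorax (right), with SE bars from the edgeR fit; filled points have an adjusted p below 0.05 and the x axes differ in range. In the thorax CYP9AG7 stands at -7.94 and the other 9 genes lie between -1.21 and 0.79.

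Of all 41 other P450 genes with a CYP symbol, 8 were called for the dsx label in male heads, 2 higher and 6 lower, which is 19.5% against 8.92% of all genes, of which 3.97% were higher and 4.95% lower (edgeR). Their median log2 fold change was -0.07, beside 0.01 for all genes. The count was 15 with the leading component as a covariate, beside 2440 of all 12136 genes tested. It was 13 without the 3 libraries that stood apart, beside 1995 of 12338 genes. When male libraries were fitted alone it was 5 of 40 tested, beside 459 of 11572 genes. The number of calls over all genes thus moved with that of the P450s. CYP4AB14, a gene of the CYP4 clan, whose members in insects include fatty acid and pheromone hydroxylases, changed most. It had 955 to 1461 CPM in GFP male heads and 32.8 to 110.5 CPM in dsx-labelled ones, with no overlap (log2 fold change -4.07 ± 0.32, adjusted p = 6.33e-08, edgeR). CYP4AB12, of the same subfamily, was higher, with 6.43 to 18.8 CPM against 29.7 to 43.1 CPM (1.52 ± 0.22, adjusted p = 0.000116, edgeR). In female heads 0 of the 41 were called by edgeR or by DESeq2, and 1 had an unadjusted p below 0.05 by edgeR.

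Between the sexes in GFP heads, 21 of the 41 were called, 13 higher and 8 lower in males, which is 51.2% against 33.8% of all genes (edgeR). Their median log2 fold change was 0.263. Without the 3 male heads that stood apart 28 were called, 14 higher and 14 lower, beside 5857 of 12338 genes tested. The median of the P450s was then -0.0007. With the leading component as a covariate 26 were called, 14 higher and 12 lower, beside 6290 of 12136 genes, and the median was 0.202. Without GFP male head replicate 1 or replicate 2 alone, the median was 0.173 or 0.145. The part of those 3 libraries in the lean towards males was not tested. CYP4BW5 was the lowest in males relative to females, with 0.661 to 1.34 CPM in GFP male heads and 16.9 to 26.7 CPM in GFP female heads (-4.34 ± 0.34, adjusted p = 7.50e-09, edgeR). CYP6CK8, also of the CYP3 clan, was higher in males by 8.37 ± 0.24 on the log2 scale (adjusted p = 3.02e-15, edgeR) and lower in dsx-labelled than GFP male heads by -0.85 ± 0.17 (adjusted p = 0.00239, edgeR). It was named after its values were seen. In the male thorax 18 of 40 tested P450s other than CYP9AG7 were called for the dsx label, 12 higher and 6 lower, which is 45.0% against 26.9% of all genes. CYP4AB14 was among those lower there, with a mean of 2837 CPM under GFP and 55.3 CPM under the dsx label (-5.69 ± 0.42, adjusted p = 1.73e-08, edgeR).

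Glutathione S-transferases, which conjugate the products of P450s and other reactive compounds, were represented by 16 genes by symbol. In male heads 5 of them were called for the dsx label, 1 higher and 4 lower (31.2% against 8.92% of all genes), and in male thoraces 9 of 15 were called, 4 higher and 5 lower (60.0% against 26.9% of all genes, edgeR). In female heads edgeR called 0 of 16, with 1 at an unadjusted p below 0.05, and in female thoraces it called 0 of 15, with 0 at that level; DESeq2 counts were not made for this list.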

How the data were processed

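Paired reads of 150 bp were sequenced from total RNA, per the labels' protocols, with HISAT2 2.0.5 and HTSeq 0.6.1 named in the submitters' processing notes. The authors deposited 1 table of whole-number read counts per gene, not normalized, and 0 of its columns lacked a sample. Neither the genome build nor the strand setting of the counting is given in these sources. A RefSeq gene table of assembly Nvit_psr_1.1 gave gene kinds and neighbours; 14799 of 15471 symbols matched it exactly. Sequences were not used here.

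CPM were computed over each library's total. Each stage was fitted on its own 20 libraries with edgeR 4.0.16 in R 4.3.3 (TMM, filterByExpr with minimum count 10, prior count 0.125, quasi-likelihood test, Benjamini-Hochberg adjustment over all genes of the contrast, called below 0.05), without a replicate block. The fit was first tested on simulated counts. DESeq2 1.42.0, RLE factors, no filter, a replicate block, single-sex fits, a leading-component covariate and leaving out libraries were tried as alternatives. Permutation tests (SciPy 1.17.1) were exact and two-sided, with a pseudocount of 0.1 CPM. Intervals and floors (3 counts) cover counting error only, since no molecular identifiers are described.

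The gene, the lists and the tests were chosen with earlier results of these data known. The text names CYP9AG7, Dsx, Tra, all CYP9 genes, 2 annotated genes on either side, the 5 genes most like it over groups and over male heads (from 10 CPM), and the P450 outside CYP9 with the largest called fold per direction; other names were chosen after their values were seen. P450s listed without a CYP symbol, the redox partners, UDP-glycosyltransferases, and muscle, gut and vitellogenin markers could not be matched by name and were not used here. GFP libraries are shared between the contrasts of dsRNA label and sex.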

Additional observations from a re-analysis of the deposited data

Results flagged for a closer look

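In groups of 5 libraries, a library is listed here where its gap to the nearest other library exceeded 0.71 of the group's range. Chance gives about 1 such flag in 20 groups of normally distributed values. Of the 45 combinations of gene and group examined, 18 gave a flag, 9 of them among the 19 groups of CYP9AG7 with counts. That rate is no baseline for these flags, since a group with counts in 1 library alone always has a gap of 1. For CYP9AG7, 8 of the 9 rest on a few reads. A single library held all the counts of its group (gap 1) in dsx-labelled male embryos (replicate 5), GFP male larvae of day 7 (replicate 4), dsx-labelled male larvae of day 7 (replicate 1), GFP male larvae of day 9 (replicate 5), GFP female thoraces (replicate 2) and dsx-labelled male abdomens (replicate 4). The gap was 0.862 for GFP male embryo replicate 4 and 0.887 for GFP male pupa replicate 1.

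The remaining flag for CYP9AG7 was dsx-labelled male head replicate 1, at 13099 CPM with a gap of 0.936. The same library stood apart from the other dsx-labelled male heads for LOC100123365 (0.929), LOC103316980 (0.952), LOC116416351 (0.911), CYP6CK11 (0.923), LOC100115316 (0.932), LOC100678590 (0.957), LOC100117852 (0.910), LOC100124194 (0.883) and LOC100119652 (0.952). These 10 flags come from 1 library and are not independent; 5 of the genes were chosen for their correlation with CYP9AG7 over these libraries.

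The effect of the dsx label differed between the sexes in heads for CYP4AB12, by 1.32 on the log2 scale (males minus females, adjusted p = 0.0170, edgeR interaction), and for CYP4AB14, by -4.28 (adjusted p = 2.86e-06, edgeR interaction). Both P450s were chosen for their change in male heads.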

How the results depend on the processing

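Over all results and alternatives, 502 values were counted as unchanged, 42 moved, 1 reversed and 1 newly passed the threshold. For a test, unchanged means the same direction and side of the threshold. For a number of calls or of shared genes, it means within a set ratio of the main number. For a group level it means within the SD of the group, which groups at 0 in every library always meet. CYP9AG7 was lower in dsx-labelled male thoraces in each fit tried, with log2 fold changes of -8.40 to -7.69 when 1 replicate was left out, and it was not called in male heads in any of them (-0.89 without dsx-labelled replicate 1 to -0.28 without GFP replicate 1). The head interaction ran from -0.16 to 1.75 with 1 replicate left out and reversed only without GFP female head replicate 1. The thorax interaction of sex and label was called by DESeq2 alone (-6.33), on female groups of 4 and 0 counts that cannot carry it. In male heads 4 of 5 same-numbered pairs deviated together (r from 0.30 to 0.64) and replicate 2 did not (-0.29), and in female heads none did (-0.30 to -0.0081). In male pupae r was positive in all 5 pairs (0.072 to 0.42), and in no other stage and sex was it positive in every pair. The main fits did not take the numbers as pairs, and these values do not settle whether they are. With the replicate block the log2 fold change was -0.50 in male heads (adjusted p = 0.346, edgeR) and -8.10 in male thoraces (adjusted p = 5.50e-05, edgeR).

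P450 calls other than CYP9AG7 in male heads were 8, against 15 when the leading component was a covariate, 5 with male libraries alone and 13 without the 3 male heads that stood apart; in female heads they were 0, and 1 with the covariate or without the 3; for the interaction they were 7, and 12 with the covariate and 11 without the 3. Over all genes the male head calls were 1083, and 2440, 459 and 1995 in the same order. Female head calls were 5, and 26 by DESeq2, 3 with the block, 32 with the covariate, 34 with female libraries alone and 76 without the 3 (3 to 12 with 1 replicate left out). Head interaction calls were 498, and 775 by DESeq2, 1680 with the covariate and 1693 without the 3. Calls between the sexes in heads were 4104, and 6290 with the covariate. In the thorax, male calls were 3171, and 1511 with male libraries alone (2106 to 4487 with 1 replicate left out); female calls were 2, and 99 by DESeq2, 0 with the block, 4 with the covariate and 14 with female libraries alone (0 to 9); and interaction calls were 1502 (1004 to 2920). The cause of these shifts was not tested.

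At a few counts per library, levels outside the male head and GFP male thorax could not be ordered, and CYP9AG7 could not be fitted with female libraries alone.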

Other observations

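LOC100677912, named after its values were seen, also had most of its summed group means in male heads (97.1%). It had 6230 to 10654 CPM in GFP male heads and 119 to 170.2 CPM in GFP female heads, and unlike CYP9AG7 it was already at 120.3 CPM in GFP male pupae. LOC100115602 (93.2% in male heads) had 611 ± 160.5 CPM in GFP male heads, 26.0 CPM in GFP male larvae of day 9 and 1.07 ± 0.118 CPM in GFP female heads. LOC100119652 (92.2%) had 390.1 CPM in GFP male heads, and 51.5 CPM in GFP against 8.77 CPM in dsx-labelled male abdomens.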
